A study of Homo sapiens with 6 samples.

Results

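The genes of the liver coagulation factors and of the protein C system were examined in Hep3B cells with and without RFX6. They were chosen by symbol as F2, F5, F7, F9, F10, F11, F12, F13B, PROC and PROS1, with the fibrinogen chains and serpins left out. Of these 10 genes, 9 were among the 16720 named rows of the count table, and F9 was not analysed here. In all, 12839 genes had enough counts to be tested, among them 6 of the coagulation genes, which were F2, F5, F7, F10, PROC and PROS1.

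Hep3B is an established human cell line from a hepatocellular carcinoma. RFX6, a winged helix transcription factor, was knocked out with Cas9 and a single guide in these cells, and RNA was sequenced from 3 control libraries (sgControl) and 3 knockout libraries (sgRFX6). Both groups are Hep3B cells, and the study's methods describe a lentiviral vector that carries Cas9 and the guide, puromycin selection and the picking of clones grown from single cells. How many clones entered each group is not given in the sources used here, so differences between clones and the loss of RFX6 cannot be told apart. The knockout guide, printed because it defines the comparison, was gtgaaggagtttgcttacca. This guide was taken from the study's methods by the name sg3 of the knockout columns, since the sample labels do not say which guide was used. The libraries are numbered 1 to 3 within a group, and nothing in the labels says that they came from separate cultures. The p-values therefore measure the spread between these libraries, which may be technical.

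Blood clotting runs through a chain of serine proteases that the liver makes as inactive precursors. Factor VII starts the chain with tissue factor, factor X joins with its cofactor factor V to cut prothrombin, and thrombin then forms fibrin, while factors XI and XII feed the contact route and factor XIII cross-links the clot. Protein C and its cofactor protein S brake the chain by cutting activated factors V and VIII. Prothrombin, factors VII and X, protein C and protein S carry residues that a vitamin K-dependent enzyme modifies in the hepatocyte. In the liver, HNF4A acts on many of these genes.

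The libraries held between 16730374 and 25070770 counts. Levels are given as CPM, which are counts relative to library size after scaling by edgeR's TMM factors, and 3 counts, taken as the floor, corresponded to between 0.122 and 0.189 CPM. The floor covers counting error only, whereas the 95% intervals given with fold changes come from the edgeR fit and hold the spread between libraries. Library 2 of sgControl and library 3 of sgRFX6 stood apart and received the lowest quality weights of their groups in limma-voom (0.292 and 0.168, against at least 1.08 for the others). They also tilted in opposite ways with the GC content of the transcripts. In sgControl library 2, the median log2 CPM minus the mean of the other control libraries ran from -0.40 in genes of at most 40% GC to 0.21 in genes over 60% GC. In sgRFX6 library 3, the same difference from the other knockout libraries ran from 1.02 to -0.64.

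RFX6 itself was read first. Its levels were 5.64, 5.83 and 7.34 CPM in sgControl and 3.43, 3.71 and 3.50 CPM in sgRFX6, and the groups did not overlap. The difference was -0.82 on the log2 scale (SE 0.26) and did not pass edgeR's quasi-likelihood test (adjusted p = 0.142, exact permutation p = 0.1, the smallest p that 3 against 3 libraries can give). A guide can disrupt a protein and leave its transcript, so this level is an indirect check of the knockout. The study reports that it checked its knockout cells by real-time PCR and by western blotting.

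Stretches upstream of 3 genes are shown because they place letters recognised by liver factors, and by RFX proteins, beside genes whose levels are described next. They come from the RefSeq promoter table on GRCh38.p14 and lie on the plus strand, 5′ to 3′, and all 9 genes with a row had an entry there. The capitals mark matches, on either strand, to AGGTCA (the core bound by HNF4A and other nuclear receptors), CAAAGTCCA (a site form preferred by HNF4A) or GTTGCC (one arm of the X-box that RFX proteins bind).
F2, chr11:46719123-46719222: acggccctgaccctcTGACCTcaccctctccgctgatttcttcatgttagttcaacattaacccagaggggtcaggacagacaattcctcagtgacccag
F7, chr13:113105576-113105645: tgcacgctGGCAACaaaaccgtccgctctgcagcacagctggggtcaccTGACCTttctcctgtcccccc
F10, chr13:113122709-113122808: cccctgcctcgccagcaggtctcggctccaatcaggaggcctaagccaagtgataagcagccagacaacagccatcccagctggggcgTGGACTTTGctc

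With the first transcribed base counted as 0, F2 held AGGTCA at -75 and -196. F7 held AGGTCA at -166 and GTTGCC at -207. F10 held CAAAGTCCA at -2, and F13B held GTTGCC at -206. In windows of the same length, from 250 bases before to 50 bases after the start, AGGTCA occurred in 13.8% of 35116 promoters, CAAAGTCCA in 0.384% and GTTGCC in 12.2%. In F5, F11, F12, PROC and PROS1 these letters were not in the window. The matches describe the sequence and show no binding in these cells.

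None of the 6 tested coagulation genes passed the edgeR quasi-likelihood test, and sgRFX6 and sgControl overlapped in each of them. Over all tested genes, 480 passed (3.74%), 247 of them higher (1.92%) and 233 lower (1.81%) in sgRFX6. At an unadjusted p under 0.05, 1 of the 6 remained, against 15.6% of all genes, and 23.1% of all genes had groups that did not overlap. DESeq2 called 0 of the 6 (6.97% of all genes). Limma-voom with sample quality weights called F5 and PROS1 (31.1% of all genes). The median log2 fold change was -0.17 over the 6 genes and 0.024 over all tested genes, with 2 of the 6 positive. In bulk RNA, fewer cells with a transcript and less of it per cell cannot be told apart.

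**Figure D1:**
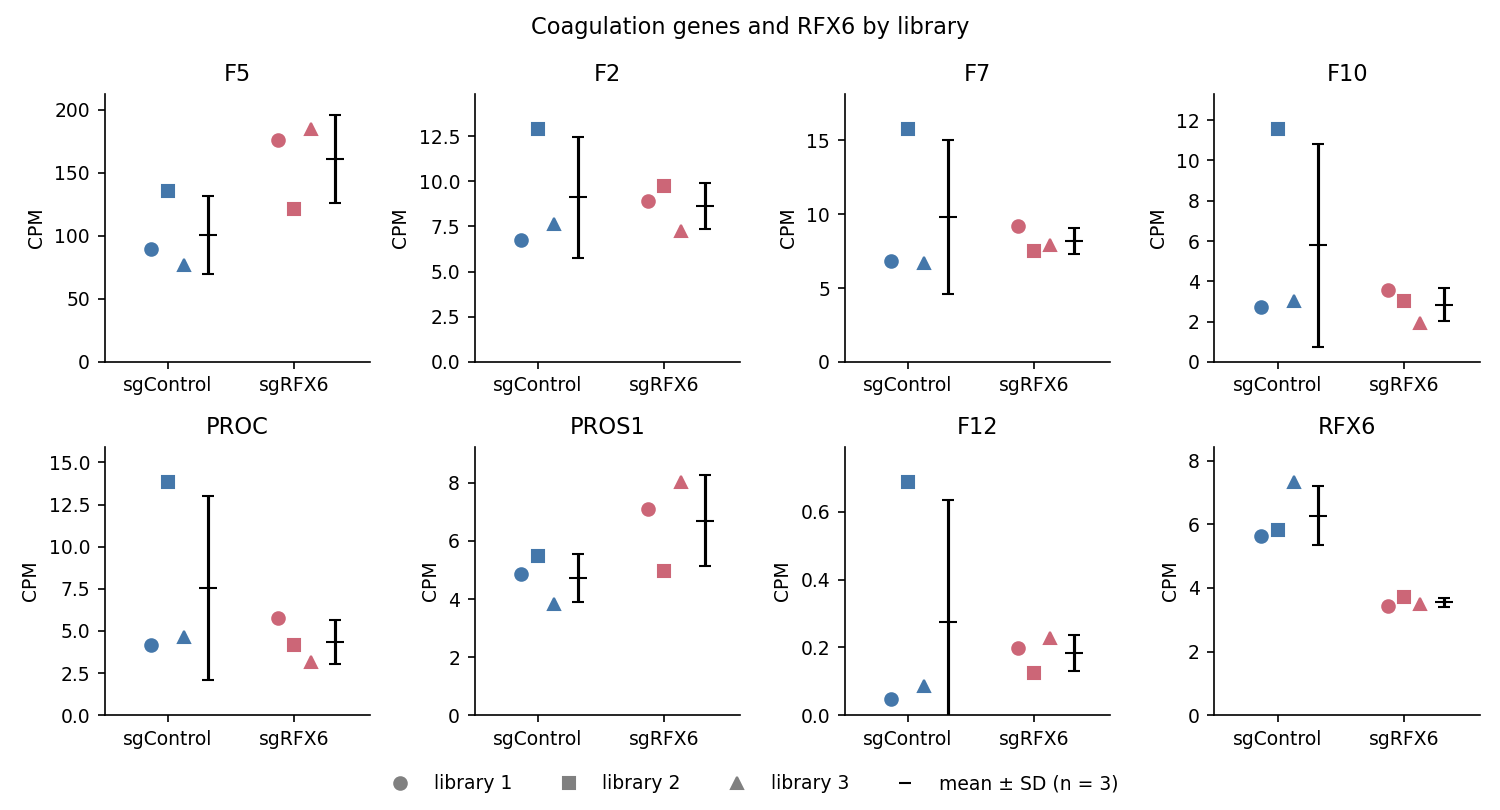
CPM of each library (vertical axis, from 0 in every panel) for the 6 tested coagulation genes, F12 and RFX6 in sgControl and sgRFX6. Symbols mark libraries 1 to 3, bars show the mean and SD (n = 3, and the bar of F12 is cut at 0), and library 2 of sgControl lies far above the other controls in F7, F10, PROC and F12 while the groups separate only for RFX6.

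F5 encodes factor V, the cofactor of factor Xa and a substrate of activated protein C. It lies at chr1:169514166-169586588 on the minus strand. Its levels were 89.7, 135 and 76.5 CPM in sgControl and 176, 121 and 185 CPM in sgRFX6. Libraries 1 and 3 of sgRFX6 were above every control, and library 2 was below sgControl library 2. The means were 100 ± 30.8 and 161 ± 34.7 CPM (SD, n = 3), and the log2 fold change was 0.68 (SE 0.26, 95% interval 0.098 to 1.26). The difference had the smallest unadjusted p of the 6 genes (0.0268 in edgeR's quasi-likelihood test) but an adjusted p of 0.229, and the exact permutation p was 0.2. The median over the 50 nearest tested genes on the chromosome was -0.050.

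The call for F5 turned on how the libraries that stood apart were weighed. Limma-voom with sample quality weights gave 0.99 (adjusted p = 0.000666). EdgeR's quasi-likelihood test without sgControl library 2 and sgRFX6 library 3 gave 0.84 (adjusted p = 0.0107), a fit in which 25.2% of all genes were called. Leaving out sgControl library 2 alone gave 0.95 (edgeR adjusted p = 0.0958), and removing the GC trend of each library gave 0.65 (edgeR adjusted p = 0.0985). The log2 fold change of F5 was positive in all 18 alternatives, from 0.54 to 0.99.

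PROS1 encodes protein S, the cofactor of activated protein C, at chr3:93873033-93980003 on the minus strand. Levels of PROS1 were 4.87, 5.47 and 3.84 CPM in sgControl and 7.10, 4.97 and 8.04 CPM in sgRFX6. As with F5, libraries 1 and 3 of sgRFX6 were above the controls and library 2 was among them. The log2 fold change was 0.51 (SE 0.29, 95% interval -0.15 to 1.16), with an edgeR adjusted p of 0.466 and an exact permutation p of 0.2. The 50 nearest tested genes had a median of 0.49, and with that regional shift removed the value was 0.018 (edgeR adjusted p = 0.995). Limma-voom with quality weights gave 0.68 (adjusted p = 0.0226), and edgeR with the GC trend removed gave 0.42 (adjusted p = 0.317).

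F10 encodes factor X, the protease on which both routes into the chain meet. Its gene lies at chr13:113122814-113149529, with F7 2132 bases before it and PROZ 9124 bases after it. F10 was counted 57, 286 and 70 times in sgControl against 72, 48 and 43 times in sgRFX6. Their CPM were 2.75, 11.6 and 3.02 against 3.58, 3.02 and 1.95. Library 2 alone set the control mean of 5.78 ± 5.02 CPM apart from the knockout mean of 2.85 ± 0.824 CPM (SD, n = 3). The log2 fold change was -1.03 (SE 0.57, 95% interval -2.31 to 0.26, edgeR adjusted p = 0.449, exact permutation p = 0.5), and it was -0.024 without sgControl library 2 (edgeR adjusted p = 0.991).

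PROC encodes protein C, the zymogen that thrombin activates on the endothelium, at chr2:127418427-127429246. Levels of PROC were 4.14, 13.9 and 4.62 CPM in sgControl and 5.76, 4.15 and 3.13 CPM in sgRFX6. It showed the same single high control library as F10. The log2 fold change was -0.80 (SE 0.49, 95% interval -1.91 to 0.31, edgeR adjusted p = 0.508, exact permutation p = 0.6), and it was -0.015 without that library (edgeR adjusted p = 0.995). The 50 nearest tested genes had a median of 0.068.

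F7 encodes factor VII, which starts clotting together with tissue factor, at chr13:113105788-113120681. Levels of F7 were 6.84, 15.8 and 6.69 CPM in sgControl and 9.19, 7.48 and 7.90 CPM in sgRFX6. Each sgRFX6 library was above sgControl libraries 1 and 3 and below library 2. The log2 fold change was -0.26 (SE 0.36, 95% interval -1.08 to 0.57, edgeR adjusted p = 0.831, exact permutation p = 1.0), and without sgControl library 2 it turned to 0.27 (edgeR adjusted p = 0.695).

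F2 encodes prothrombin, the precursor of thrombin, at chr11:46719180-46739506. Levels of F2 were 6.75, 12.9 and 7.64 CPM in sgControl and 8.89, 9.74 and 7.27 CPM in sgRFX6. The means of 9.10 ± 3.34 and 8.63 ± 1.26 CPM (SD, n = 3) lay within the spread of the controls. The log2 fold change was -0.079 (SE 0.30, 95% interval -0.77 to 0.61, edgeR adjusted p = 0.950, exact permutation p = 0.9) and 0.26 without sgControl library 2 (edgeR adjusted p = 0.734). With the median of its 50 nearest tested genes (0.32) subtracted, F2 was at -0.40 (edgeR adjusted p = 0.747). The intervals of F7, F10 and PROC reached down to -1.08, -2.31 and -1.91 on the log2 scale, so falls of that size lay within the error of 3 libraries a group.

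**Figure D2:**
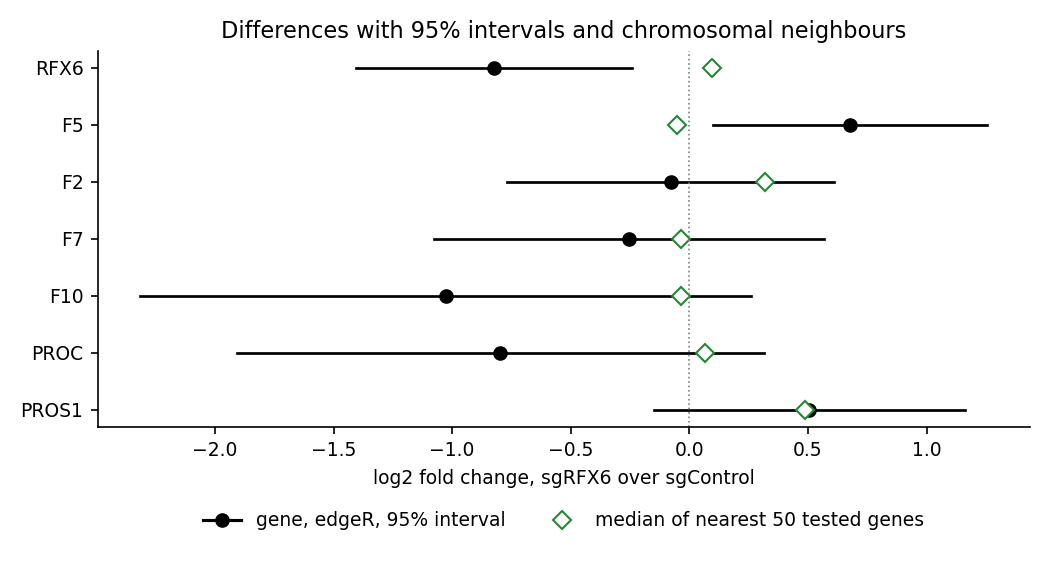
Log2 fold change of sgRFX6 over sgControl from edgeR (horizontal axis) for the tested coagulation genes and RFX6, with 95% intervals, and the median of the 50 nearest tested genes as diamonds. The interval of F5 (0.098 to 1.26) lies above 0, those of the other 5 coagulation genes include 0, and the diamond of PROS1 (0.49) lies beside its own value (0.51).

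F11, F12 and F13B had too few counts to be tested. F11, the factor XI gene, showed 1, 1 and 0 counts in sgControl and none in sgRFX6, and F13B, the carrier subunit of factor XIII, had none in sgControl and 0, 0 and 2 counts in sgRFX6. Both were at or under 3 counts in every library, and no fold was computed. F12 encodes factor XII of the contact route and was counted 1, 17 and 2 times in sgControl against 4, 2 and 5 times in sgRFX6. Its high value was again in sgControl library 2. F12 lies at chr5:177402140-177409576 and shares 6373 bases with GRK6 on the opposite strand, and whether counting used the strand is not given in the sources used here, so reads of the pair cannot be told apart.

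Per kilobase of the longest annotated transcript, F5 had the highest level of the 9 genes in both groups. Its mean was 14.3 CPM per kilobase in sgControl and 22.8 in sgRFX6. F2 came next with 4.50 and 4.27 CPM per kilobase, and F5 was above F2 in every library. In sgControl, PROC (4.25), F10 (3.81) and F7 (3.14) followed, and the ranges of F2, PROC, F10 and F7 overlapped from one to the next. PROS1 (1.32) lay below F7 and above F12 (0.134) without overlap. In sgRFX6 the order after F2 was F7 (2.63), PROC (2.45), F10 (1.88) and PROS1 (1.87). F7 lay below F2 without overlap, and the ranges of neighbours among F7, PROC, F10 and PROS1 overlapped. F12 (0.0897) was lower than PROS1 in every library.

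The high values of sgControl library 2 were the most marked pattern among these genes. This library was the highest of the 6 in 4 of the 6 tested genes (F2, F7, F10 and PROC), against 23.4% of all tested genes. It was at least 2-fold above both other controls in 3 of them (F7, F10 and PROC), against 4.91% of all tested genes. Its CPM was 4.02 times the mean of the other controls in F10, 3.16 times in PROC, 2.33 times in F7, 1.80 times in F2, 1.63 times in F5 and 1.26 times in PROS1. On the log2 scale the difference of F10 was 1.97, above that of 99.3% of tested genes, and that of PROC was 1.64, above 98.4%.

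These genes differ in base composition, and the library tilted with it. The longest transcripts of F2, F7, F10 and PROC held between 57.4% and 59.7% GC, F5 held 45.5% and PROS1 40.5%. With the GC trend removed, the log2 difference of library 2 from the other controls was 1.69 for F10, 1.36 for PROC, 0.96 for F7, 0.71 for F5, 0.57 for F2 and 0.56 for PROS1. Among genes within 2.5 percentage points of GC, F10 was above 98.5% and PROC above 97.0%. F7 was above 93.1% of the genes within that window and F2 above 85.5%, where they had been above 96.1% and 91.5% of all tested genes. F5 and PROS1 moved the other way, from 88.8% and 75.2% of all tested genes to 93.0% and 89.7% within the window. The part of GC content in these differences was not tested further.

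**Figure D3:**
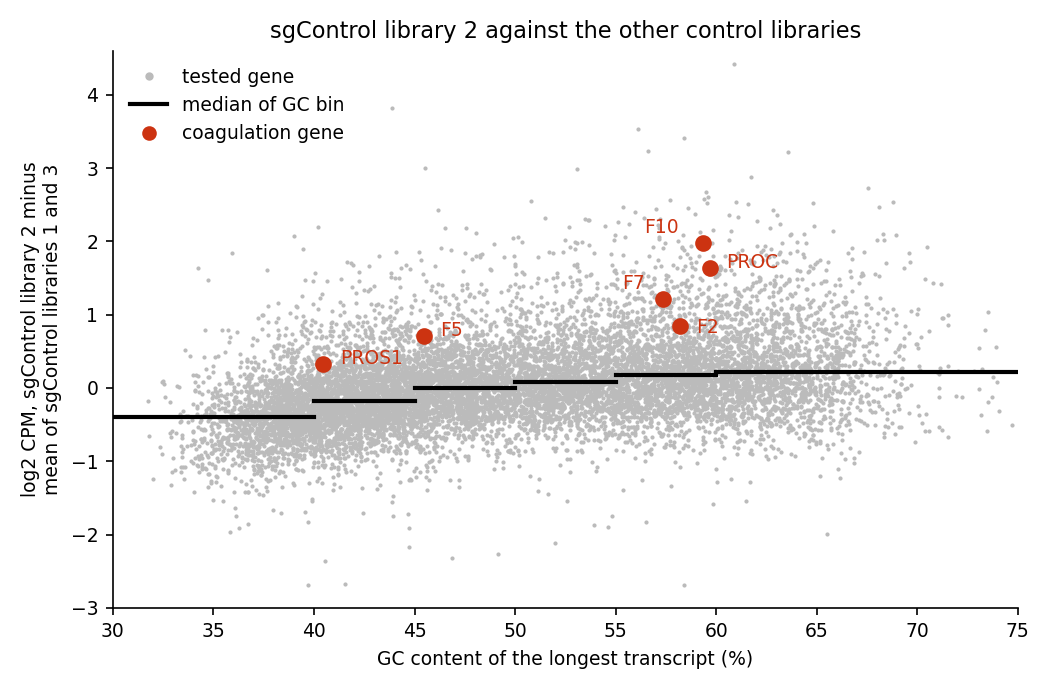
Log2 CPM of sgControl library 2 minus the mean of sgControl libraries 1 and 3 (vertical axis) against GC content of the longest transcript in percent (horizontal axis) for the tested genes, with medians of GC bins and the coagulation genes in red. The medians rise from -0.40 to 0.21 with GC content, and F10 (1.97) and PROC (1.64) lie far above them.

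**Figure D4:**
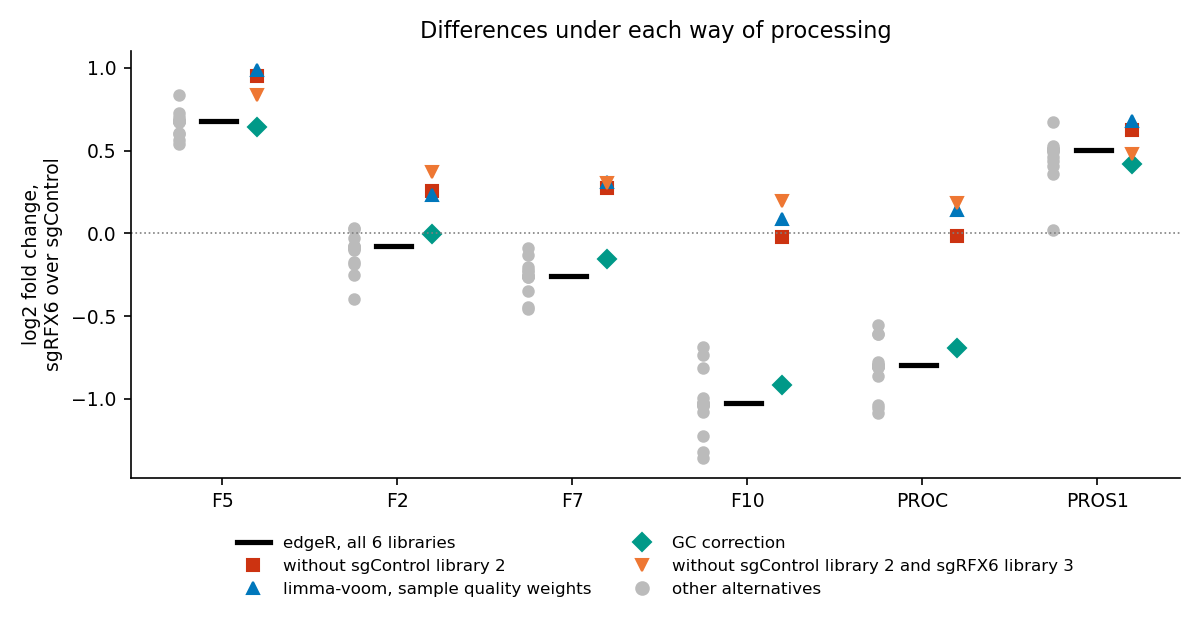
Log2 fold change of sgRFX6 over sgControl (vertical axis) for each tested coagulation gene under edgeR with all 6 libraries (black line) and under each of 18 alternatives (points). F5 stays above 0 between 0.54 and 0.99, whereas F10 runs from -1.36 to 0.20 and PROC from -1.09 to 0.18, with values near 0 once sgControl library 2 is left out.

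The genes whose profile over the 6 libraries was most like that of F5 were LPAR1, COL21A1, APOL6, SGCE and MAL2. Likeness was the root mean square difference between centred log2 CPM profiles, which ran from 0.0902 for LPAR1 to 0.129 for MAL2. None of these 5 genes passed the edgeR test, and the profiles share the same libraries, depths and GC tilts.

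The genes around the clotting factors were read from 5 lists of 64 genes, of which 63 had a row and 51 were tested. In edgeR, 5 of the 51 passed, of which 3 rose and 2 fell, against 3.74% of all tested genes that passed, 1.92% higher and 1.81% lower. With so few genes on each list, a single call moves a list far from that share.

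The vitamin K cycle and the removal of propeptides prepare prothrombin, factors VII, IX and X, protein C and protein S for secretion. Of its 9 tested genes, 1 fell, against 1.81% of all tested genes, and the median log2 fold change was -0.041 against 0.024 over all genes. FURIN, a protease of the secretory pathway that removes propeptides, had 174, 213 and 157 CPM in sgControl and 93.3, 75.7 and 59.0 CPM in sgRFX6. Every knockout library was below every control, and FURIN fell by 1.25 on the log2 scale (SE 0.21, edgeR adjusted p = 0.0144). The call held in all 18 alternatives, narrowly without sgControl library 2 (edgeR adjusted p = 0.0489) and without sgRFX6 library 2 (edgeR adjusted p = 0.0496). The most abundant other members, the quinone reductase NQO1 and the epoxide hydrolase EPHX1, had -0.29 (SE 0.19, edgeR adjusted p = 0.532) and -0.60 (SE 0.25, edgeR adjusted p = 0.299). Without sgControl library 2 they were at -0.19 and -0.39, and EPHX1 was at -0.40 without sgRFX6 library 3. With the GC correction EPHX1 was below the threshold at -0.57 (edgeR adjusted p = 0.0396).

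None of the 10 genes of the secretion list passed, a count near the 3.74% of all tested genes, and their median was 0.011. ASPH, a hydroxylase of epidermal growth factor-like domains, had -0.21 (SE 0.23, edgeR adjusted p = 0.767). ASPH was at -0.51 both in limma-voom with quality weights (adjusted p = 0.00472) and in edgeR without sgControl library 2 and sgRFX6 library 3 (adjusted p = 0.0118), at -0.44 without sgRFX6 library 3 alone and at -0.063 without sgRFX6 library 1. SEC23B, a coat protein of vesicles that leave the endoplasmic reticulum, had 0.15 (SE 0.15, edgeR adjusted p = 0.707). LMAN1, part of the cargo receptor for factors V and VIII, had 0.20 (edgeR adjusted p = 0.870). Its levels were 94.6, 75.2 and 67.3 CPM in sgControl and 61.0, 60.02 and 151 CPM in sgRFX6, so that sgRFX6 library 3 alone was above the controls and the other knockout libraries were below them. Without sgRFX6 library 3 the value of LMAN1 turned to -0.38 (edgeR adjusted p = 0.239).

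Among initiators, receptors and other clotting proteins, 2 of 10 tested genes rose, against 1.92% of all tested genes, and none fell, with a median of -0.063. KNG1, which encodes the contact cofactor kininogen, was counted 4, 9 and 12 times in sgControl against 64, 29 and 50 times in sgRFX6, with no overlap, and rose by 2.73 on the log2 scale (SE 0.45, edgeR adjusted p = 0.0122). Without sgRFX6 library 1 its adjusted p in edgeR was 0.0591. C4BPA encodes the alpha chain of C4b-binding protein, and the gene of the beta chain, C4BPB, had too few counts to be tested. C4BPA had 5.64, 9.44 and 6.17 CPM in sgControl and 17.3, 15.3 and 19.5 CPM in sgRFX6. It rose by 1.29 (SE 0.27, edgeR adjusted p = 0.0346). The groups of C4BPA did not overlap either, and its edgeR adjusted p was 0.132 without sgControl library 1, 0.180 without sgControl library 3, 0.118 without sgRFX6 library 1 and 0.0673 without sgRFX6 library 2. PROCR, the protein C receptor, had -0.31 (edgeR adjusted p = 0.635) and 0.014 without sgControl library 2. HPN, a liver protease able to activate factor VII, had -0.99 (edgeR adjusted p = 0.471) and was 4.28 times the mean of the other controls in sgControl library 2, without which its value was 0.077.

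In fibrinolysis, 1 of 6 tested genes fell, against 1.81% of all tested genes, and the median was 0.036. PLAT, the tissue plasminogen activator that dissolves clots by activating plasminogen, was counted 172, 479 and 213 times in sgControl against 10, 16 and 12 times in sgRFX6. The highest knockout library was far below the lowest control, and PLAT fell by 4.19 on the log2 scale (SE 0.47, edgeR adjusted p = 0.0026), a call that held in all 18 alternatives. ANXA2 and S100A10, which together bind plasminogen and its activator at the cell surface, had -0.093 (SE 0.19, edgeR adjusted p = 0.893) and 0.25 (SE 0.19, edgeR adjusted p = 0.599), and limma-voom with quality weights put S100A10 at 0.31 (adjusted p = 0.0341).

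Of the 16 tested liver transcription factors, 1 rose, against 1.92% of all tested genes, and the median was 0.041. NR1H4, the bile acid receptor, was counted 4, 5 and 3 times in sgControl against 22, 12 and 22 times in sgRFX6 and rose by 2.41 (SE 0.44, edgeR adjusted p = 0.0203). Its groups did not overlap, but its counts were low, and its edgeR adjusted p was 0.0753 without sgControl library 1, 0.105 without sgControl library 3 and 0.0937 without sgRFX6 library 1. RXRA, the partner of many nuclear receptors, had 0.027 (SE 0.18, edgeR adjusted p = 0.972), and CEBPA, a regulator of hepatocyte genes, had 0.34 (SE 0.25, edgeR adjusted p = 0.601). CEBPA was below the threshold in limma-voom with quality weights (0.43, adjusted p = 0.0347) and in edgeR without sgControl library 2 and sgRFX6 library 3 (0.68, adjusted p = 0.0197), at 0.059 without sgRFX6 library 2, at 0.22 without sgControl library 1 and at 0.54 without sgRFX6 library 3. HNF4A had -0.27 (SE 0.16, edgeR adjusted p = 0.494) and did not pass. Its levels were 146, 161 and 147 CPM in sgControl and 135, 133 and 109 CPM in sgRFX6. The groups of HNF4A did not overlap, as in 23.1% of all tested genes, and its value ran from -0.32 to -0.13 over 18 alternatives. FOXA1 had means of 7.01 and 3.30 CPM in sgControl and sgRFX6, at -1.08 on the log2 scale (SE 0.26, edgeR adjusted p = 0.0622). FOXA3 was at -0.86 (SE 0.30, edgeR adjusted p = 0.182). Neither passed, and their groups did not overlap either. Of the 16 factors, 9 were above 0 and 7 below. Limma-voom with quality weights called 3 higher and 3 lower (31.1% of all genes called).

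**Figure D5:**
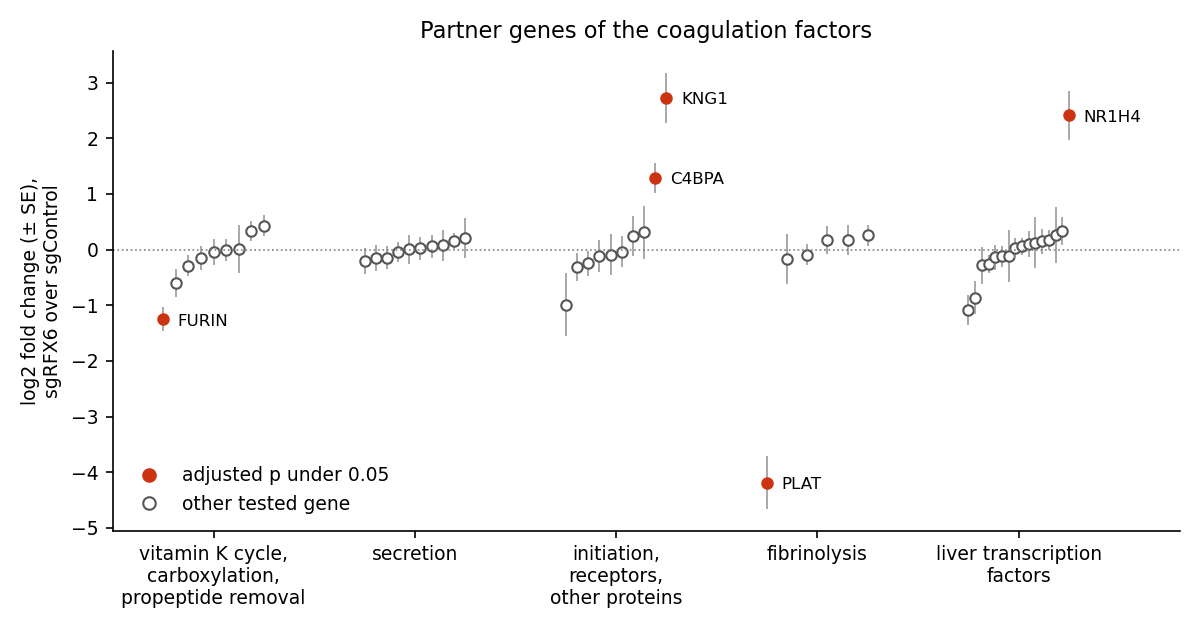
Log2 fold change of sgRFX6 over sgControl with its SE (vertical axis) for the 51 tested genes of the 5 lists around the clotting factors, with the genes past an edgeR adjusted p of 0.05 in red. KNG1 (2.73), NR1H4 (2.41) and C4BPA (1.29) lie above 0, and PLAT (-4.19) and FURIN (-1.25) below it.

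Hepatocyte markers were counted in every library, with summed levels of 166 to 204 CPM in sgControl and 133 to 178 CPM in sgRFX6. APOB and APOH had the highest mean CPM, at 66.6 and 76.1 in sgControl and 27.1 and 58.6 in sgRFX6. In sgControl and sgRFX6, ALB had means of 20.2 and 22.0 CPM, APOA1 1.06 and 1.79 CPM, and TTR 0.482 and 0.674 CPM. All 10 hepatocyte markers were tested, 2 rose (AFP and AHSG), none fell and none was at the floor. The share of all tested genes that passed, against which the marker counts stand, was 3.74%, with 1.92% higher and 1.81% lower. Of 8 endothelial markers, 6 had a row, 1 was tested and none passed, and KDR, ERG and TIE1 were at or under 3 counts in every library. The endothelial sums were 11.9 to 13.6 and 13.5 to 19.7 CPM, most of it PECAM1, with means of 12.1 and 16.6 CPM. Platelet markers, with 5 of 8 rows and GP6 at the floor, summed to 2.94 to 3.52 and 2.91 to 3.58 CPM, and neither of the 2 tested passed. Macrophage markers summed to 74.7 to 160 and 66.9 to 104 CPM, with TYROBP and AIF1 at the floor and CD163 higher among 4 tested. Most of the macrophage sum was CD68, with means of 105 and 86.4 CPM. Fibroblast markers summed to 51.4 to 60.8 and 21.5 to 56.4 CPM, and COL1A1, COL1A2 and COL3A1 fell among 5 tested. Most of the sgRFX6 fibroblast sum was LUM, with 19.5, 20.6 and 54.7 CPM, whereas COL3A1 had means of 25.7 CPM in sgControl and 0.0331 CPM in sgRFX6. Cholangiocyte markers summed to 712 to 1083 and 532 to 831 CPM, with CFTR at the floor and none of 5 tested past the threshold. Most of the cholangiocyte sum was KRT19, with means of 736 and 592 CPM. Some of these genes are also made by cultured carcinoma cells, and their part in the values above was not tested.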

How the data were processed

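The authors deposited raw counts per gene for the 6 libraries. Total RNA had been isolated with Trizol and sequenced on an Illumina instrument. The submitters' processing notes name the genome build GRCh38, and the aligner, counter and annotation release are not given in the sources used here. The control columns are named cas without a guide and were taken as sgControl, the only control group.

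The table has 16721 rows, and 1 that names no gene (up to 9.17e-05% of the counts) was dropped. Counts were fitted with edgeR 4.0.16 in R 4.3.3 (TMM, filterByExpr with a minimum count of 10 and total of 15, quasi-likelihood F test of sgRFX6 against sgControl over all 6 libraries without covariates, Benjamini-Hochberg over 12839 genes, threshold 0.05). The biological coefficient of variation was 0.269. Libraries of 1 group differed by more than sampling noise (chi-square per degree of freedom 17.0 to 124). CPM were compared by two-sided exact permutation tests.

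Lengths, GC content and positions came from GENCODE release 29 (GRCh38). Of the row names, 15422 matched by name, 258 by another symbol and 1041 not, and 95.1% of tested genes had a value. The GC correction fitted a loess trend (span 0.3) of each library's log2 CPM (prior count 2) on GC content. For the regional correction, the median of the 50 closest tested genes was subtracted.

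Alternatives were DESeq2 1.42.0, limma 3.58.1 voom with quality weights per library, RLE factors, unscaled library sizes, robust dispersion, other filters, both corrections, the replicate number as a block and each library left out. The fit without sgControl library 2 and sgRFX6 library 3 was added after seeing the data. The edgeR, DESeq2, limma-voom and GC-corrected fits were tested on simulated counts.

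The members, lists and tests were chosen with earlier results of these data known. The genes named are RFX6, the 10 coagulation genes, the genes of each list that passed, the 2 most abundant where fewer than 2 passed, and the 5 genes most like F5. LMAN1, PROCR, HPN, HNF4A, FOXA1 and FOXA3 were named after their values were seen. Results of 1 listed gene are left out of the text.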

Additional observations from a re-analysis of the deposited data

How the results depend on the processing

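Counts over all genes moved most. EdgeR with all libraries called 480 genes and 5 of the 51 genes on the lists around the clotting factors. DESeq2 called 895 genes, limma-voom with quality weights 3998 genes and 16 of those on the lists, the GC correction 1429 and 8, and the fit without sgControl library 2 and sgRFX6 library 3 3238 and 12. Leaving out each library in turn gave 212 to 718 genes and 2 to 6 of those on the lists. Of the coagulation genes, limma-voom called 2, the fit without both libraries 1 and every other alternative 0. RFX6 was below the threshold of 0.05 with limma-voom (-0.96), the GC correction (-0.85) and the fit without both libraries (-0.87). With 1 library left out it ran from -0.89 to -0.67.

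Directions turned in genes that did not pass. Limma-voom gave 0.23 for F2, 0.31 for F7, 0.087 for F10, 0.14 for PROC, 0.057 for ANXA2, 0.20 for HPN and -0.23 for LMAN1. The fit without both libraries gave 0.37, 0.30, 0.20, 0.18, 0.069, 0.24 and -0.42 for the same genes and 0.10 for PROCR. The regional correction gave -0.16 for LMAN1. With 1 library left out, F2 ran from -0.25 to 0.26, F7 from -0.46 to 0.27, F10 from -1.36 to -0.024, PROC from -1.09 to -0.015, ANXA2 from -0.18 to 0.060, HPN from -1.35 to 0.077, LMAN1 from -0.38 to 0.42, PROCR from -0.48 to 0.014 and RXRA, at 0.027 with all libraries, from -0.10 to 0.16. RXRA was negative without sgRFX6 library 1 or 2 and reached 0.21, its direction kept, without sgControl library 2 and sgRFX6 library 3. The cause was not tested.

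The labels do not say whether the replicate numbers pair the libraries. With each group centred, the correlations of same-numbered libraries were -0.41, 0.17 and -0.087. The libraries that stood apart carry different numbers, so these correlations cannot decide on pairing. The replicate block called 648 genes, 5 of those on the lists and 0 coagulation genes. With the GC correction as well it called 879 genes, and F2 was 0.024.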

Other observations

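Some relatives of the clotting factors had counts too low to be tested and are given as counts only, chosen after their values were seen. VWF, the carrier of factor VIII, was counted 10, 6 and 13 times in sgControl against 5, 1 and 1 times in sgRFX6. TFPI2, a protease inhibitor related to TFPI, was counted 7, 6 and 11 times in sgControl against 10, 21 and 32 times in sgRFX6. PROZ, the neighbour of F10, was counted 1, 13 and 4 times in sgControl against 3, 10 and 3 times in sgRFX6, C4BPB had 4, 15 and 2 against 0, 4 and 4, and CLEC3B had 1, 23 and 0 against 3, 0 and 1. In PROZ, C4BPB and CLEC3B, as in F12, sgControl library 2 held the highest count.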
